A study of Arabidopsis thaliana with 12 samples.

Results

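The 26S proteasome of Arabidopsis was described here through 48 genes for its subunits, chosen by gene identifier from the 27655 genes of the deposited tables. No measured value entered the rule of choice, but earlier results of these data were known. The 20S core particle had 13 genes for the alpha ring (PA) and 11 for the beta ring (PB). The 19S regulatory particle had 11 for the ATPases (RPT) and 13 for the non-ATPase subunits (RPN). Paralogs were summed per subunit, which gave 30 subunits, 18 of them with 2 member genes and 12 with 1. RPN9, RPN13, DSS1 and the paralogs RPN5B, RPN8B and RPN12B are outside the 48 and are given separately.

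All samples were wild-type Col-0 seedlings, 7 days old, grown in shaken liquid medium and given 0.1% DMSO as a mock treatment 3 h after lights on, then harvested 20 or 60 min later. RNA-seq (rRNA-depleted RNA) and Ribo-seq (ribosome-protected fragments, or footprints, of 28 to 30 nt) had 6 libraries each, and the tables hold 1 pooled value per gene and assay. No gene therefore has a spread over replicates, no difference between genes or assays could be tested, and the 20 and 60 min harvests cannot be told apart. Each interval given is a 95% interval for counting error only. It takes every read as an independent molecule, which PCR copies are not, so it may be too narrow even for counting error. A label field of the Ribo-seq samples names root where their titles and source name seedlings. Markers of green tissue (4 of 4 genes, from 1144 TPM in the RNA-seq table and from 1605 TPM in the Ribo-seq table) and of root (6 of 6 genes, from 1.9 and from 1.7 TPM) were detected in both assays.

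The 26S proteasome is the protease that degrades proteins tagged with ubiquitin. Its core is a barrel in which outer rings of alpha subunits gate the entry and inner rings of beta subunits carry the proteolytic sites, and its regulatory particle binds ubiquitin chains, removes them, and unfolds and feeds the substrate with a ring of ATPases. Each subunit takes a fixed place in the complex, and in Arabidopsis most are encoded by a pair of paralogs. Loss of single paralogs or subunits is known to change meristem size, hormone responses and stress tolerance in this plant.

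Levels are in TPM, that is, counts per effective coding length scaled to the same total in each assay. This allows for the unequal length of genes. The effective length was shorter than the coding length by 186 nt in RNA-seq and 27 nt in Ribo-seq (medians over the 48 genes). This weighs most on short coding sequences: for PBC1, of 615 nt, the effective lengths were 429 and 588 nt. It lowers the TPM ratio of short genes against that of long ones. RNA TPM stands for the RNA-seq level and footprint TPM for the Ribo-seq level. All 48 genes were detected. They held 181793 of 51390094 RNA counts (0.354%) and 1752400 of 299584069 footprints (0.585%), with 19 to 12142 counts per gene in RNA and 88 to 89484 in footprints. Chloroplast and mitochondrial genes took 29.0% of the RNA counts but 3.71% of the footprints, which shifts nuclear genes upward in footprints relative to RNA on the TPM scale. Ratios are therefore read against the median of the nuclear genes, and their sign alone carries no information.

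Proteasome genes were among the more abundant nuclear transcripts. The median member had 66.7 RNA TPM and 113 footprint TPM, against 8.49 and 8.18 TPM for nuclear genes with over 0.1 RNA TPM, and 36 of the 48 members were in the top 10% of nuclear genes by RNA TPM. The highest was PBF1 (beta6, AT3G60820) with 151 RNA TPM and 234 footprint TPM, and the lowest was PAC2 (AT4G15165) with 0.65 and 0.43 TPM. Within these bulk seedling samples, fewer cells that use a gene and less RNA per cell cannot be told apart.

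The paralogs of 1 subunit encode similar proteins while their coding sequences differ enough for most footprints to be placed. Protein identity over the 18 pairs ran from 85.4% (RPT1A and RPT1B) to 99.1% (PAB1 and PAB2, with 2 differences, and RPT2A and RPT2B, with 4). It covers aligned residues only. Length differences do not enter it, such as 426 against 598 residues for RPT1 and 250 against 208 for alpha3. Of the windows of 28 nt, the length of a footprint, at most 8.8% per pair also occurred in another coding sequence, except in RPT6A and RPT6B with 27.2%. Those paralogs lie close together on chromosome 5, and their longest identical stretch was 104 nt, while windows of 100 nt, the RNA-seq read length, were shared at only 0.4%. The pairs on which the comparison of paralogs turns are shown as stretches of coding exon of the TAIR10.1 reference genome, with the bases that differ between the paralogs in capitals: first the window of RPT6 in which a footprint can be told apart best, then a window of RPT6 in which it cannot be told apart, and last the windows of alpha4 and alpha3 with the most differences.
RPT6A, chr5:6752278-6752305, plus strand: ccAgcTTcgACaGaagAcTAataacctC
RPT6B, chr5:6757049-6757076, plus strand: ccTgcAAcgCGaAaagTcGTataacctT
RPT6A, chr5:6752857-6752884, plus strand: gaatgctcagagaagagttacagctcct
RPT6B, chr5:6757503-6757530, plus strand: gaatgctcagagaagagttacagctcct
PAD1, chr3:19032023-19032050, plus strand: GtttgaTccCtacActcgTAtAccCGcG
PAD2, chr5:26437858-26437885, minus strand: CtttgaCccTtacTctcgCCtCccTTcC
PAC1, chr3:7792982-7793009, minus strand: CAgtCGagctTgcCTtGaaggttCtgaC
PAC2, chr4:8650022-8650049, plus strand: TGgtTCagctCgcTAtCaaggttTtgaG
The most different windows of RPT6, alpha4 and alpha3 each held 10 differing bases of 28.

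Beginning with the alpha ring, whose subunits form the gated entrance to the core, the 7 sums lay between 94.1 and 165 RNA TPM and between 153 and 260 footprint TPM. Alpha1 (PAA1 and PAA2) was the highest subunit of all 30 in both assays, with 165 RNA TPM and 260 footprint TPM. Alpha4 (PAD1 and PAD2) was next to it in RNA with 157 TPM, but had 209 footprint TPM. The remaining alpha sums were 95.3 RNA TPM and 177 footprint TPM for alpha2, 118 and 204 for alpha3, 94.4 and 153 for alpha5, 113 and 161 for alpha6, and 94.1 and 193 for alpha7. Alpha7 thus had the lowest RNA-seq level of the ring and a Ribo-seq level at the ring's median. It is encoded by PAG1 alone (AT2G27020, 4172 RNA counts and 47681 footprints).

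The beta ring holds the active sites, with caspase-like activity in beta1, trypsin-like activity in beta2 and chymotrypsin-like activity in beta5. Its 7 sums lay between 88.8 and 151 RNA TPM and between 153 and 235 footprint TPM. Among the catalytic subunits, beta1 (PBA1 alone) had 112 RNA TPM and 182 footprint TPM, beta2 (PBB1 and PBB2) had 144 and 196 TPM, and beta5 (PBE1 and PBE2) had 111 and 153 TPM. The others of the ring had 109 RNA TPM and 235 footprint TPM for beta3, 122 and 218 for beta4, 151 and 234 for beta6, and 88.8 and 164 for beta7. In RNA the catalytic subunits thus lay within the range of the others. In footprints they lay below beta3, beta4 and beta6, and beta5 was the lowest of the ring. Beta3 (PBC1 and PBC2) had the largest excess of Ribo-seq over RNA-seq of the 30 subunit sums, with a log2 ratio of 1.11.

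RPT1 to RPT6 are the ATPases of the ring that unfolds substrates, and in yeast the C-terminal tails of some of them open the gate of the core. Their RNA-seq sums were 126 TPM for RPT1, 83.7 for RPT2, 118 for RPT3, 117 for RPT4, 110.0 for RPT5 and 87.1 for RPT6. Their Ribo-seq sums lay closer together, with 182 TPM for RPT1, 167 for RPT2, 173 for RPT3, 181 for RPT4, 196 for RPT5 and 180 for RPT6. The highest RPT sum was 1.51 times the lowest in RNA and 1.18 times in footprints, the narrowest Ribo-seq range of the 4 groups of subunits. This range includes RPT6, whose paralogs share 27.2% of footprint-length windows. Had such footprints been left out of the counts, its Ribo-seq sum would be too low, which was not tested.

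Among the RPN subunits, RPN1 and RPN2 are the large scaffolds of the base, RPN10 is a ubiquitin receptor, and the others belong to the lid, in which RPN11 is the metalloprotease that removes ubiquitin chains, RPN8 is its partner without activity, and RPN3, RPN5, RPN6, RPN7 and RPN12 form the scaffold around them. Their 10 sums had lower medians (86.1 RNA TPM and 139 footprint TPM) than the core (112 and 195) but overlapped it, and ran from 76.5 TPM (RPN3) to 108 TPM (RPN11) in RNA and from 96.5 TPM (RPN10) to 163 TPM (RPN5A) in footprints. The scaffolds had 90.8 RNA TPM and 134 footprint TPM for RPN1, and 91.9 and 122 TPM for RPN2. RPN10 (AT4G38630) had 83.5 RNA TPM, within the range of the other RPN sums, and the lowest Ribo-seq level of all 30 subunits, with 5408 RNA counts and 37033 footprints behind the values. RPN11 (AT5G23540) had the highest RNA-seq level of the RPN subunits and 141 footprint TPM. The lid subunits ran from 76.5 to 108 RNA TPM (RPN3 and RPN11) and from 123 to 163 footprint TPM (RPN3 and RPN5A).

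**Figure D1:**
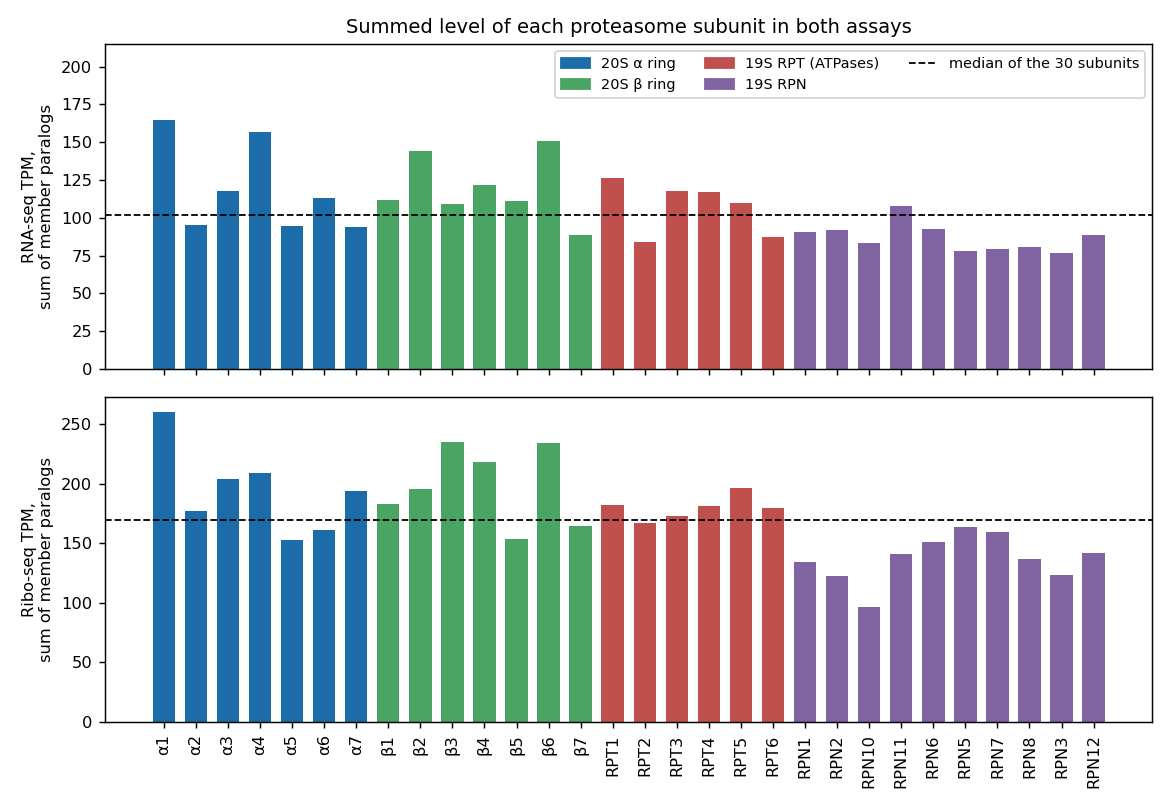
Summed level of each of the 30 proteasome subunits in RNA-seq (top) and Ribo-seq (bottom), in TPM, over the member genes of the subunit; each bar is 1 pooled value per assay, so there are no error bars, colours mark the 4 groups of subunits, and the dashed line is the median over the 30 subunits (102 TPM at the top and 170 TPM at the bottom). The RPT bars are nearly level in Ribo-seq, although the RPT6 bar is uncertain because of footprint windows shared between its paralogs. The RPN bars, which leave out the paralogs RPN5B, RPN8B and RPN12B, lie below the Ribo-seq median.

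Over all 30 subunits the sums were alike in spread in both assays. The highest sum was 2.16 times the lowest in RNA and 2.69 times in footprints, the SD of log2 TPM was 0.31 in both, and 28 of 30 sums lay within 1.5-fold of the median in each assay. The 16 sums of the regulatory particle had a median of 89.8 RNA TPM and 155 footprint TPM, below that of the 14 core sums. By group, the SD of log2 TPM, first in RNA and then in footprints, was 0.34 and 0.26 for the alpha ring, 0.26 and 0.25 for the beta ring, 0.25 and 0.08 for RPT, and 0.15 and 0.22 for RPN. The spread was thus smaller in footprints for alpha and RPT, close to equal for beta, and larger for RPN, where RPN10 was the lowest. For RPT it rests in part on the RPT6 sum, which is uncertain because of footprint windows shared between its paralogs. Whether these differences exceed the variation between seedling samples was not tested. Without the length term (counts scaled to the assay total only, or CPM), the SD over the 30 subunits was 0.61 in RNA and 0.48 in footprints, on a scale on which long coding sequences such as RPN1 and RPN2 count for more.

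Single genes were spread more widely than subunit sums. The 48 genes taken singly had an SD of log2 TPM of 1.27 in RNA and 1.51 in footprints. The highest value was 232 times the lowest in RNA and 544 times in footprints, the lowest being PAC2. PAC2 (0.65 and 0.43 TPM) and the next lowest, RPT1B (8.08 and 4.69 TPM), widen this spread, which was not recomputed without them. Across the 20663 nuclear genes with over 0.1 TPM in both assays the SD was 2.36 and 2.59. As another complex of fixed composition, the COP9 signalosome (a relative of the lid that removes the ubiquitin-like protein NEDD8 from cullin ligases) had 8 subunit sums with an SD of 0.32 in RNA and 0.41 in footprints. The ranking of the 30 proteasome sums was kept in part between the assays, with a Spearman correlation of 0.72 across subunits, which share the same pooled libraries and are not independent replicates.

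**Figure D2:**
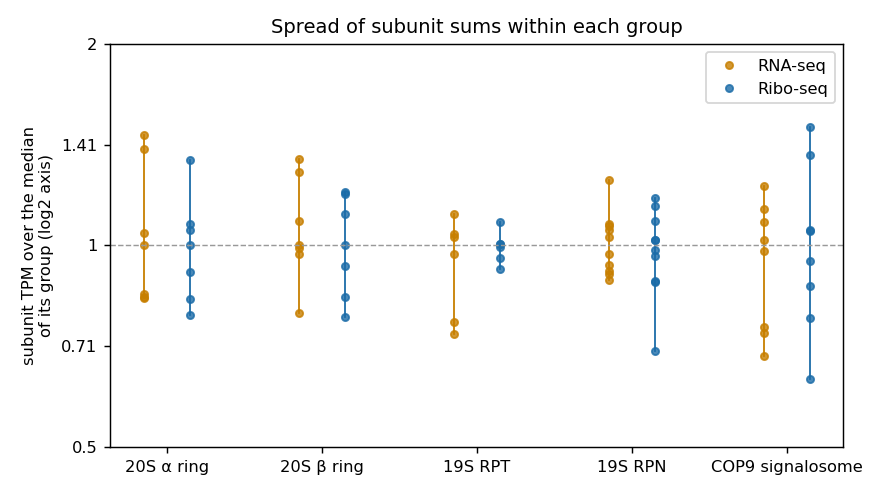
Each subunit sum divided by the median of its own group, in RNA-seq and in Ribo-seq, on a log2 axis; points are subunits, lines join the lowest and highest of a group, and the 8 subunits of the COP9 signalosome are added for comparison. The 6 RPT points draw together in Ribo-seq (SD of log2 TPM 0.08 against 0.25 in RNA-seq), and the lowest RPN point in Ribo-seq is RPN10. The Ribo-seq point of RPT6 is uncertain because of footprint windows shared between its paralogs.

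Footprints per RNA, as log2 of footprint TPM over RNA TPM with 0.1 added to each, were higher for the proteasome genes than for most nuclear genes. The median over the 48 members was 0.67 with an interquartile range of 0.48 to 0.87, against a median of 0.12 and an interquartile range of -0.42 to 0.57 for the 21422 nuclear genes with over 0.1 RNA TPM. The ratio lay above the nuclear median in 45 of the 48 members, against 50.0% of nuclear genes by construction. The 3 below it were PAD2, PAC2 and RPT1B. Rescaling to nuclear genes alone moved the nuclear median by -0.43, and the members with it.

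A log2 ratio over 1 was found in 7 of the 48 members, against 8.44% of nuclear genes and 13.3% of those with like RNA TPM: PAG1 (1.04), PBC1 (1.17), PBC2 (1.02), RPT2A (1.19), RPT6B (1.36), RPN5A (1.06) and RPN7 (1.01). The counting intervals of PAG1, PBC2 and RPN7 reached below 1. None of the 48 was under -1, against 10.1% of nuclear genes, a share that was not computed for those with like RNA TPM. With TPM rescaled to nuclear genes the highest member was at 0.92, so that 0 of the 48 passed 1, against 2.66% of nuclear genes. The count past 1 thus depended on the scaling. The SD of the ratios was 0.37 over the members and 0.91 over nuclear genes. Abundant transcripts had higher ratios in general. The 1441 nuclear genes with RNA TPM in the interquartile range of the members (42.6 to 88.9 TPM) had a median log2 ratio of 0.47. Their interquartile range, 0.07 to 0.79, was narrower than that of all nuclear genes, and 38 of the 48 members lay above their median.

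On the TPM scale the 4 groups of subunits had nearly the same median ratio. It was 0.67 for the 13 alpha genes, 0.70 for the 11 beta genes, 0.70 for the 11 RPT genes and 0.66 for the 13 RPN genes. The core and the regulatory particle differed by 0.02 in their medians (0.69 and 0.66). Without the length term this difference was 0.19, with medians of 0.83 for alpha, 0.90 for beta, 0.67 for RPT and 0.63 for RPN genes. The near equality of the groups thus depended on the scaling. Length moved with the ratio among nuclear genes too, with a median of 0.32 for coding sequences of 600 to 837 nt, the range of the core genes in the Ribo-seq table, of 0.14 for those from 1157 to 1797 nt, the range of the RPT genes, and of -0.25 for those from 2600 to 3100 nt, the class of RPN1 and RPN2. Against genes of its own length, RPN2A with a log2 ratio of 0.39 thus stood further above the median than PBF1 with 0.64.

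Single genes departed from their group in either direction. In the alpha ring the ratio ran from -0.50 for PAC2 (interval -1.23 to 0.30, on 19 RNA counts and 88 footprints) to 1.04 for PAG1 (0.99 to 1.08), with PAD2 at -0.04 (-0.10 to 0.02). In the beta ring it ran from 0.39 for PBB1 (0.34 to 0.44) to 1.17 for PBC1 (on 1855 counts and 29205 footprints), so every beta gene lay above the nuclear median. Among RPT genes it ran from -0.77 for RPT1B (-0.88 to -0.66, on 887 counts and 2813 footprints) to 1.36 for RPT6B (1.29 to 1.44, on 1611 counts and 24290 footprints). Among RPN genes it ran from 0.21 for RPN10 (0.17 to 0.25) to 1.06 for RPN5A (on 6024 counts and 73227 footprints), again all above the nuclear median. Across the 48 members the ratio had a Spearman correlation of -0.24 with coding length, and RNA TPM and footprint TPM one of 0.92 with each other, both over genes that share the same libraries.

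**Figure D3:**
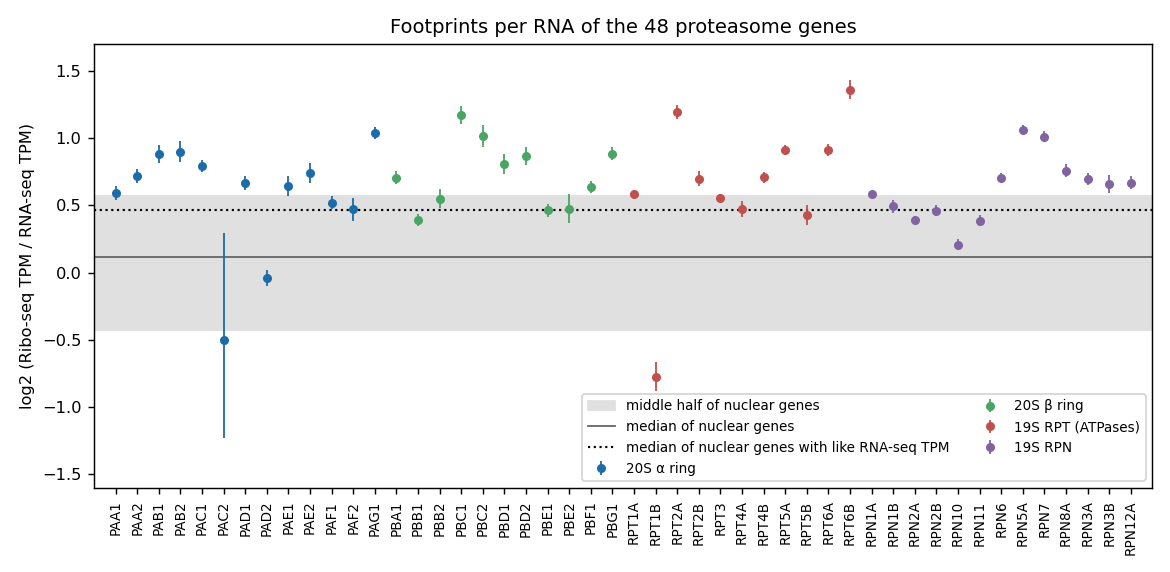
Log2 ratio of Ribo-seq to RNA-seq TPM for each of the 48 genes, coloured by group; points are pooled values, bars are 95% counting intervals, the solid line and grey band are the median (0.12) and interquartile range (-0.42 to 0.57) of nuclear genes, and the dotted line is the median of nuclear genes with like RNA-seq TPM (0.47). All but PAC2, PAD2 and RPT1B lie above the solid line.

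In 16 of the 18 pairs the same paralog held the larger share of the summed TPM in both assays. The larger Ribo-seq share had a median of 68.6% over the pairs and ran from 50.6% to 99.8%. It differed from the same gene's RNA-seq share by a median of 1.93 percentage points, and by no more than 5 points in 15 of the 18 pairs. In 4 pairs it reached 80%, and in 4 it stayed under 60%. The division of a subunit between its genes was thus read alike by RNA and by footprints in most pairs.

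The 4 most uneven pairs were alpha3, RPT1, RPT5 and beta5. PAC1 (AT3G22110) held 99.8% of the alpha3 footprint TPM (99.7 to 99.8) and 99.4% of its RNA TPM, with 4410 RNA counts and 50001 footprints against 19 and 88 for PAC2, whose annotated protein is shorter (208 against 250 residues). RPT1A (AT1G53750) held 97.4% in footprints and 93.6% in RNA, with 118 and 8.08 TPM for RPT1A and RPT1B in RNA and 177 and 4.69 footprint TPM. RPT1B (AT1G53780) is annotated with 598 residues against the 426 of RPT1A.

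RPT5A (AT3G05530) held 85.6% in footprints and 81.0% in RNA, with 89.1 and 168 TPM against 20.9 and 28.2 TPM for RPT5B. PBE1 (AT1G13060) held 84.2% in footprints and 84.3% in RNA, with 93.5 and 129 TPM against 17.4 and 24.2 TPM for PBE2 (AT3G26340), which had the lowest levels of the beta ring. In alpha3, RPT1 and RPT5 the minor gene also had the lower ratio, by between 0.58 and 2.01 on the log2 scale for PAC2, by 1.36 for RPT1B (1.24 to 1.47) and by 0.48 for RPT5B (0.40 to 0.57). For beta5 the ratios of PBE1 and PBE2 were 0.46 and 0.48, with an interval of the difference that held 0 (-0.13 to 0.11).

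At the even end were alpha5, alpha1, beta4 and alpha2. PAE2 held 50.6% of the alpha5 footprint TPM (50.1 to 51.1) and 49.0% in RNA, with 48.2 TPM for PAE1 and 46.2 TPM for PAE2 in RNA and 75.3 and 77.2 footprint TPM. PAA2 held 51.1% of alpha1 (50.7 to 51.5) and 48.9% in RNA, with 84.3 TPM for PAA1 and 80.6 TPM for PAA2 in RNA and 127 and 133 footprint TPM. These were the pairs in which the larger paralog changed between the assays, around an even division. PBD2 held 56.0% of beta4 in footprints and 54.9% in RNA, and PAB1 held 59.0% of alpha2 and 59.4%.

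The RNA-seq and Ribo-seq shares lay more than 5 points apart in alpha4, RPT2 and RPT6. PAD1 and PAD2 divided the alpha4 RNA TPM at 57.5% and the footprint TPM at 68.8%, with 3399 and 2514 RNA counts but 35251 and 15980 footprints. PAD1 had 90.3 RNA TPM and 144 footprint TPM, while PAD2 had 66.8 and 65.0 TPM, so the ratio of PAD2 was lower by 0.71 (0.63 to 0.79). Their coding sequences shared no window of 28 nt, and the printed stretch of PAD1 and PAD2 shows where they differ most.

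For RPT2, a subunit known in Arabidopsis for the root meristem defect of plants without RPT2A, the share of RPT2A (AT4G29040) was 55.1% in RNA and 63.4% in footprints. RPT2A had 46.1 RNA TPM and 106 footprint TPM, and RPT2B (AT2G20140) had 37.6 and 61.0 TPM, a difference in ratio of 0.50 (0.42 to 0.57) between genes whose proteins differ at 4 positions.

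RPT6 departed the other way, with RPT6A (AT5G19990) at 74.1% in RNA and 67.7% in footprints. RPT6A had 64.6 and 122 TPM and RPT6B (AT5G20000) had 22.6 and 58.2 TPM. This is the pair with 27.2% of footprint-length windows in common, and no source used here says whether such footprints were divided or left out. Both genes had whole-number counts (48209 and 24290 footprints). Among non-overlapping nuclear genes, the 180 with at least 95% shared windows had a median of 10 footprints, against 1881 for the 17010 with none. Of the 180, however, 82 had 0 RNA counts and 79 had 0 footprints, while the highest had 70775 footprints. The low median therefore does not show how shared footprints were treated. The treatment of shared footprints was not tested. A reckoning that takes them as divided equally, and counts the unshared ones alone, gives RPT6A a footprint share of 74.3%, next to its RNA-seq share. It would not apply had shared footprints been left out. This reckoning takes coverage as even along the coding sequence, and for RPT1A it gave an impossible share of 102%, so it was used for nothing further. The high ratio of RPT6B is uncertain because of the shared windows. Across the 18 pairs the gene with the larger footprint share had the higher ratio in 13, which follows in part from ranking the pair by its footprints. The interval of the difference left out 0 in 12 pairs. In 9 of them the gene with the larger footprint share had the higher ratio, and in 3 the lower.

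**Figure D4:**
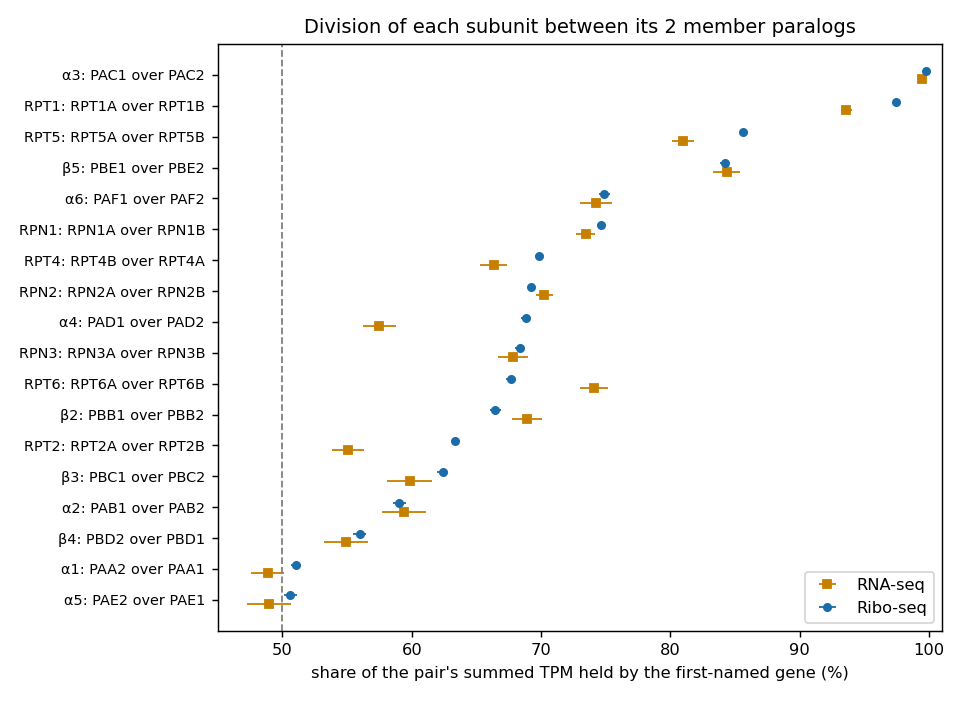
Share of the summed TPM of a subunit (x axis, in percent) held by the gene named first, in RNA-seq (squares) and Ribo-seq (circles), for the 18 subunits with 2 member genes, ordered by the Ribo-seq share; bars are exact binomial 95% intervals for counting error and the dashed line marks an even division. Most squares and circles nearly coincide, and alpha4, RPT2 and RPT6 lie furthest apart.

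Adding the paralogs outside the 48 genes raised RPN5 to 90.2 RNA TPM and 191 footprint TPM, the highest RPN sum in footprints, and RPN8 to 99.9 and 169 TPM, while RPN12 stayed at 89.3 and 143 TPM. RPN5A (AT5G09900) held 85.3% of RPN5 in footprints and 86.6% in RNA, with 28.2 and 12.1 TPM for RPN5B. RPN8A held 80.9% and 80.7% of RPN8, and RPN12A 99.0% and 99.4% of RPN12, where RPN12B had 17 RNA counts and 315 footprints. Of the subunits not among the 30, RPN9 (RPN9A and RPN9B summed) had 73.6 RNA TPM, just under the lowest lid sum, and 140 footprint TPM, within the range of the lid. The ubiquitin receptor RPN13 had 32.8 and 46.7 TPM, below every one of the 30 sums in both assays. The small subunit DSS1 (both genes summed) had 181 and 198 TPM. Its coding sequences of 225 and 222 nt had effective lengths of only 52.45 and 50.15 nt in RNA-seq, against 198 and 195 nt in Ribo-seq. Its RNA TPM is thus raised by the length term and rests on few counts (428 and 195), so it is not ranked against the other subunits. Without the length term DSS1 had 12.1 CPM in RNA and 44.0 CPM in footprints (7190 and 5995 counts).

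The members were also compared in their promoters, since NAC53 and NAC78, the transcription factors that raise proteasome genes in Arabidopsis when proteasome activity is lost, bind a proteasome-related promoter element with the letters TGGGC. In the 300 nt from 250 nt before to 50 nt after the annotated gene start, these letters occurred on either strand in 29 of 48 members (60.4%) and in 7132 of 27444 nuclear genes (26.0%), and at 2 or more positions in 45.8% and 14.5%. The same letters are the core of the site II elements of promoters such as those of ribosomal protein genes, and a palindromic match counts on both strands. Sites are shown for the paralogs furthest apart in level, PAC1 and PAC2, which each had 3 matches, and for PBA1, in which 3 matches began at -109, -69 and -29 nt from the gene start. The capitals mark the searched letters, read on the strand of the gene in TAIR10.1, and GCCCA is the same match on the opposite strand.
PAC1, chr3:7794270-7794294, minus strand: gatcttgcatTGGGCttgattatat
PAC1, chr3:7794251-7794275, minus strand: ttatataattTGGGCcttttcttat
PAC2, chr4:8648694-8648718, plus strand: aacgagaataTGGGCttaacttatt
PAC2, chr4:8648732-8648756, plus strand: aatgtattcgGCCCAtatttgtgaa
PBA1, chr4:15188625-15188649, plus strand: aagtaggtatTGGGCttgtatttgg
PBA1, chr4:15188665-15188689, plus strand: aaatatgtatTGGGCttttatttgg
PBA1, chr4:15188705-15188729, plus strand: aaatagatatTGGGCtttcacgttt
A match is a description of the window, not a site shown to be bound.

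The letters were present in 7 of 13 alpha genes, 9 of 11 beta genes, 6 of 11 RPT genes and 7 of 13 RPN genes. They were present in 10 of the 18 paralogs with the larger footprint share and in 12 of the 18 with the smaller, and in 7 of the 12 genes without a member paralog. Members with and without a match had a median of 66.6 and 66.9 RNA TPM, and of 106 and 122 footprint TPM. PAC1 and PAC2, with 3 matches each, had 117 and 0.65 RNA TPM. The median log2 ratio was 0.58 for the 29 members with a match and 0.87 for the 19 without.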

How the data were processed

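The deposited tables, 1 per assay, hold RSEM expected counts, which are not normalized, and TPM, which RSEM computed over effective coding lengths; FPKM was not used. Per the labels, the submitters' processing notes list RSEM 1.3.1, STAR and Bowtie2 2.3.4.1. The annotation, the treatment of reads shared between genes and the way in which the authors combined 6 libraries into 1 value are stated in none of the sources used here. Expected counts were whole numbers for 99.9% of RNA-seq rows and 99.7% of Ribo-seq rows.

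The members and gene lists were chosen with earlier results of these data known. Log2 ratios used a pseudocount of 0.1 TPM and genes with RNA-seq TPM over 0.1, with exact conditional binomial 95% intervals, and shares used exact binomial 95% intervals, both scaled from counts and covering counting error only. A ratio was called past 1 or under -1 on the log2 scale. No hypothesis test was run. Values were given in full for the highest and lowest genes of each group by Ribo-seq TPM and by ratio, and for the 4 most uneven and 4 most even pairs. RPT2, RPT6, alpha4, PBA1 and RPN2A were singled out after their values were seen. Coding sequences, promoter windows and coordinates came from the RefSeq annotation of TAIR10.1, in which 40 of the 48 genes have a coding sequence of exactly the length in the tables. Protein identities were computed from its translations, over aligned residues with gaps left out. Python 3.11.15, numpy 2.4.6, pandas 2.3.3, scipy 1.17.1, Biopython 1.88 and matplotlib 3.10.9 were used, and the ratio and interval code was tested on simulated data.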

Additional observations from a re-analysis of the deposited data

How the results depend on the processing

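No paired analysis was possible because the tables hold 1 pooled value per gene and assay, and for the same reason no library could be left out. Under the other settings 42 recomputed values stayed within their counting error or within 1.5 times the reported count, and 24 moved by more. With CPM in place of TPM, the median log2 ratio was 0.74 for all members, 0.83 for alpha and 0.90 for beta genes, the core exceeded the regulatory particle by 0.19, 11 members passed a log2 ratio of 1 (against 14.6% of nuclear genes), and the SD of log2 over the subunit sums was 0.61 in RNA and 0.48 in footprints. With TPM rescaled to nuclear genes, the medians were 0.22 for all members, 0.22 for alpha, 0.26 for beta, 0.25 for RPT and 0.21 for RPN genes, and 0 members passed 1, while the nuclear median moved by -0.43. Without the genes above 20% shared windows of 28 nt (RPT6A and RPT6B), the RPT median was 0.58. The SD over subunits in RNA was 0.29 with the outside paralogs added, 1.27 with paralogs not summed and 0.28 for subunits with 1 gene. In Ribo-seq it was 0.31 with the outside paralogs added, 1.51 not summed and 0.30 for subunits with 2 genes. With 70% in place of 80%, the number of dominated pairs in RNA was 8, and with 90% it was 2 in RNA and 2 in footprints. The equal division of shared footprints, the medians without PAC2 and RPT1B (which stayed within error), the RPT range in CPM, the counts past 1 under other scalings and the comparison with genes of like RNA TPM were chosen after seeing the data. Depth was lowest for PAC2 and RPN12B, with 19 and 17 RNA counts.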

Other observations

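Genes that act beside the proteasome were measured in the same tables. The assembly factors UMP1A and UMP1B, which help the core to mature, had 71.9 and 54.7 RNA TPM and 153 and 162 footprint TPM, although the coding sequence of UMP1B lies wholly within that of an overlapping gene and its values are uncertain. The alternative activator PA200 (20.5 and 17.8 TPM) and ECM29 (13.0 and 13.6 TPM), which binds the assembled complex, had log2 ratios below the nuclear median (-0.21 and 0.07). Their coding sequences are long (5436 and 5439 nt), and nuclear genes of 2600 to 3100 nt already had a median of -0.25. No median was computed for genes of their length. NAC53 had 8.87 RNA TPM and 9.41 footprint TPM and NAC78 had 30.6 and 30.7 TPM, and neither lay above the nuclear median in log2 ratio (0.08 and 0.01).

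The proteasome-associated deubiquitinases UBP6, UBP7 and UCH2 had a median log2 ratio of 0.57. CDC48A, the ATPase that extracts ubiquitinated proteins from complexes and membranes, had 216 RNA TPM and 290.2 footprint TPM, above each of the 30 subunit sums of the proteasome in both assays. The 10 genes for the COP9 signalosome had a median log2 ratio of 0.83 (0.13 to 1.22), all above the nuclear median, at a lower level than the proteasome genes, with a median of 21.6 RNA TPM and 40.6 footprint TPM.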
